A study of Rattus norvegicus with 6 samples.

Results

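The aryl hydrocarbon receptor (AhR) pathway was examined in rat liver through 8 genes, namely Ahr, Arnt, Ahrr, Cyp1a1, Cyp1a2, Cyp1b1, Tiparp and Aldh3a1. A probe belonged to the pathway when its transcript accession matched one of these symbols in the RefSeq gene table. By that rule 7 of the 8 genes had a probe, with 10 probes in all, among 15284 genes with a probe on the array. No probe was matched to Tiparp, so its expression is not analysed here.

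Liver RNA came from male Sprague-Dawley rats bought at 5 weeks of age, of which 3 received the vehicle, corn oil, and 3 received o-anthranilic acid (1000 mg/kg/day); each rat had 1 single-colour array. Anthranilic acid (2-aminobenzoic acid) is formed from tryptophan through kynurenine. The treatment protocol gives 9 weeks of dosing, while the series design places the measurement at 28 days, so the duration is not settled. The comparison addressed here is whether a tryptophan-derived acid is accompanied by higher signals of AhR target genes.

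AhR is a ligand-activated transcription factor of the bHLH-PAS family. It resides in the cytosol with the chaperone Hsp90 and the cochaperone p23, moves to the nucleus when it binds a ligand, pairs with Arnt and binds response elements that contain the core GCGTG. In liver it is best known for switching on Cyp1a1, a gene that is nearly silent without a ligand, and for raising Cyp1a2, which hepatocytes express constitutively. Several tryptophan metabolites are known ligands, among them kynurenine and indole derivatives.

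The promoter window of 6 members was found in RefSeq (build GRCr8, 250 bases before to 50 bases after the gene's start). The windows of 4 members are shown because they set the response element core beside the signals described below. In capitals is the core GCGTG on either strand (CACGC when read on the other strand), and each window is written 5′ to 3′ on the gene's own strand. The windows are chr1:30821969-30822268 (plus strand) for Ahrr, chr6:21094315-21094614 (plus) for Cyp1b1, chr8:66978100-66978399 (minus) for Cyp1a2 and chr6:57998852-57999151 (minus) for Ahr.
Ahrr: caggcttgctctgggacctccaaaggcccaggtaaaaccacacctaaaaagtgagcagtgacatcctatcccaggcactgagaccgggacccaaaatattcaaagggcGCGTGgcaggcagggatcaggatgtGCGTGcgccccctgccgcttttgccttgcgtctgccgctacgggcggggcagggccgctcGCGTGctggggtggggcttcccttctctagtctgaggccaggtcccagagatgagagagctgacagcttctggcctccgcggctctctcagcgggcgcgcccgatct
Cyp1b1: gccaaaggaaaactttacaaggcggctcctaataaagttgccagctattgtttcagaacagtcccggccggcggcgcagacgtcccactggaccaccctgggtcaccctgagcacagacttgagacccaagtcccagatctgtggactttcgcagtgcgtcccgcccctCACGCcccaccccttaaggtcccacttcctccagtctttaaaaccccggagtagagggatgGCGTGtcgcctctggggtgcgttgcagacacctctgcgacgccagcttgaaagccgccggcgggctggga
Cyp1a2: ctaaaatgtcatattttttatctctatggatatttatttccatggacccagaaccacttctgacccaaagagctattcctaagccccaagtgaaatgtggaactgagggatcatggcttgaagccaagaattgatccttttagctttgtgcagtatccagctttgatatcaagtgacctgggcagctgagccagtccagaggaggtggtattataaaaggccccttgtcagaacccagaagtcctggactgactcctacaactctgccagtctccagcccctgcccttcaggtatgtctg
Ahr: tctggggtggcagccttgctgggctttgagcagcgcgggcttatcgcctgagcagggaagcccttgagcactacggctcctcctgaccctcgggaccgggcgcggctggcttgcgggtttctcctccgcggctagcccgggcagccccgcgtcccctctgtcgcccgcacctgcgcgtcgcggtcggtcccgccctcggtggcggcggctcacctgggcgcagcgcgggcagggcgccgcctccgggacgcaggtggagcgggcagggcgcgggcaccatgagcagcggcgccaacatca

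The Ahrr window held 3 cores, starting at -142, -117 and -57 relative to the gene's start, and the Cyp1b1 window held 2, starting at -81 and -20. The windows of Arnt and Tiparp held 1 core each. No core was found in the windows of Cyp1a2 or Ahr. Of 33469 promoter windows of this length, 9939 (29.7%) held a core on either strand. The longer form TNGCGTG, which contains the core, was found in the windows of Ahrr and Cyp1b1 and in 4.89% of all windows. A match is a string of letters in this window and not a mapped binding site.

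On each array 53.3% to 58.0% of the 61657 probes were marked well above background, and the faintest of them had a signal of 20.5 to 28.0, depending on the array. All 8 hepatocyte markers, such as albumin (Alb) and transthyretin (Ttr), were well above background on every array. Signals were put on a log2 scale and set to the 75th percentile of each array, and groups were compared with limma across 33428 tested probes. Testing required that a probe carry the above-background mark in all 3 rats of one group or the other. By this filter 4 members were tested (Ahr, Arnt, Cyp1a2 and Aldh3a1), and Ahrr, Cyp1a1 and Cyp1b1 were not. Each difference below is the treated mean minus the corn oil mean on the log2 scale (3 arrays per group), and adjusted p-values are from this limma fit with Benjamini-Hochberg adjustment.

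None of the 4 tested members passed at an adjusted p of 0.05 by limma, and 1 of the 4, Ahr, had an unadjusted p under 0.05. Among all tested probes 0.0329% of probes passed, and 11.6% of 10257 genes had an unadjusted p under 0.05. The inducible targets Cyp1a1 and Cyp1b1 gave no signal well above background in any of the 6 livers. Cyp1a2 was strongly detected in all of them with overlapping groups. The receptor gene itself had lower signals in all 3 treated livers.

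**Figure D1:**
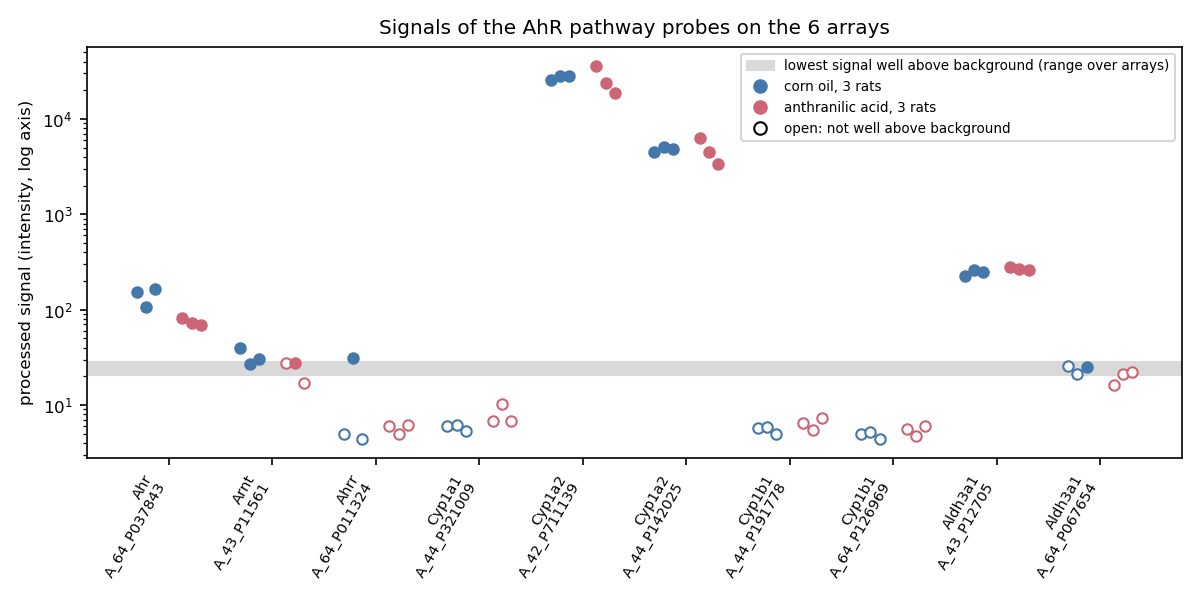
Processed signal (log axis) of each of the 10 probes on the 6 arrays; each point is 1 rat, open points were not well above background, and the grey band spans the lowest signal well above background on each array (20.5 to 28.0). The Ahr points of the treated rats (69.5 to 81.7) lie below all corn oil points (106.6 to 163), and every Cyp1a1 and Cyp1b1 point is open.

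Ahr, the receptor, was measured by probe A_64_P037843. Its processed signal was 153, 106.6 and 163 in the corn oil livers and 81.7, 72.6 and 69.5 in the treated livers, all well above background. The lowest corn oil liver was above the highest treated liver, so the groups did not overlap. The mean signal was 141 ± 30.1 (SD, n = 3) with corn oil and 74.6 ± 6.31 (SD, n = 3) with anthranilic acid. On the scaled log2 values the difference was -0.86 (SE 0.18, 95% interval -1.30 to -0.42), a 1.82-fold lower signal, with an unadjusted p of 0.00281 and an adjusted p of 0.218 by limma. The Ahr difference therefore did not pass among all tested probes. An exact permutation test over the 6 arrays (two-sided) gave p = 0.1, the smallest value that 3 against 3 arrays allow.

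By p, Ahr stood 126th of 10257 genes, and 136 genes (1.33%) were lower by at least as much. Of all genes, 9.12% were lower in treated livers without overlap, and 19.8% did not overlap in either direction. Within slide 1, which held all arrays except that of treated rat 3, the Ahr difference was -0.83. There the corn oil arrays occupied row 1 and the treated ones row 2, and the effects of row and of treatment cannot be told apart within it. In a liver sample, fewer cells of a type that express a gene cannot be told apart from less RNA per cell.

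Marker lists of liver cell types are given beside this value. All 8 hepatocyte markers had differences below 0, against 4925 of all 10257 genes. Their median was -0.09, and 0 of 8 passed by limma (1 at unadjusted p under 0.05, lower). Without overlap 5 of the 8 were lower and 0 higher, against 9.12% of all genes lower without overlap. The summed signal of the 8 hepatocyte markers was 2384261 to 2479207 with corn oil and 2105740 to 2283475 with anthranilic acid. Summed signals here and below are processed signals before scaling. The 75th percentile of the arrays was 503 to 523 with corn oil and 489 to 518 with anthranilic acid. With quantile normalization the markers Tf and Ttr moved from -0.12 and -0.09 to -0.04 and -0.01, whereas Apoa1 moved from -0.57 to -0.62. Of 8 lymphocyte markers 6 were measured, of which 4 were higher, with a median of 0.43 and 0 passing by limma (4 at unadjusted p under 0.05, all higher). Their summed signal was 615 to 676 with corn oil and 957 to 1008 with anthranilic acid. Cd3e had no probe well above background throughout a group. The part of these markers in the Ahr difference was not tested.

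Stellate cell and matrix markers, all 7 of which were measured, had a median of 0.08, with summed signals of 18684 to 18764 against 15934 to 19421. Endothelial markers (5 of 6 measured) had a median of -0.02, and Kupffer cell and macrophage markers (6 of 6) a median of -0.08. Their summed signals overlapped between the groups. By limma 0 genes of these 3 lists passed, with 1 endothelial gene lower and 1 macrophage gene higher at unadjusted p under 0.05.

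Arnt, the partner that AhR needs to bind DNA, lay near the detection limit at its only probe, A_43_P11561. Its signal was 39.8, 26.9 and 30.7 with corn oil, well above background in each. With anthranilic acid it was 27.9, 27.4 and 16.9, well above background only in treated rat 2. The groups overlapped, since treated rats 1 and 2 lay above the lowest corn oil rat. The difference was -0.41 (SE 0.23, 95% interval -0.96 to 0.14, limma adjusted p = 0.493). It was -0.20 within slide 1 and -0.08 with normexp background correction (limma adjusted p = 0.702 and 0.785).

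Ahrr, the AhR repressor, competes with AhR for Arnt and is itself an AhR target in many tissues. Its probe A_64_P011324 gave 5.02, 31.3 and 4.38 with corn oil and 5.96, 4.92 and 6.12 with anthranilic acid. Corn oil rat 2 alone was well above background. No test was made, and in treated livers the signal was not well above background in any rat.

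Cyp1a1 encodes the monooxygenase that oxidises polycyclic aromatic hydrocarbons and is the usual readout of AhR activation. Probe A_44_P321009 gave 6.08, 6.23 and 5.31 in corn oil livers and 6.76, 10.3 and 6.74 in treated livers. None of the 6 signals was well above background, and the highest, in treated rat 2, lay under the lowest signal with that mark on any array (20.5). Values that are not well above background have no reliable order, so neither a fold nor a test is given. For Cyp1a1 these arrays therefore set only an upper limit in both groups.

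Cyp1b1, a related monooxygenase that is expressed mainly outside hepatocytes, was also not well above background. Its 2 probes gave signals of 4.97 to 5.87 and 4.41 to 5.15 with corn oil and 5.44 to 7.23 and 4.77 to 5.96 with anthranilic acid. Neither probe was well above background in any liver. The measured stellate and endothelial markers above, from cell types that can carry Cyp1b1, were detected in both groups. Their relation to the Cyp1b1 signal was not tested.

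Cyp1a2, the constitutive hepatic member of the family, metabolises aromatic amines and caffeine. Its brighter probe A_42_P711139 gave 25447, 28357 and 28282 with corn oil and 36227, 23942 and 18856 with anthranilic acid. The highest and the lowest liver were both treated, and the groups overlapped. The mean signal was 27362 ± 1658 (SD, n = 3) with corn oil and 26342 ± 8930 (SD, n = 3) with anthranilic acid. The difference was -0.07 (SE 0.22, limma adjusted p = 0.916), with a 95% interval of -0.60 to 0.46. On the fold scale that interval runs from 0.659 to 1.38, so a change within these limits is not excluded.

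The second Cyp1a2 probe, A_44_P142025, gave 4486, 5038 and 4826 with corn oil and 6295, 4454 and 3400 with anthranilic acid. It placed treated rat 1 highest and treated rat 3 lowest, as the brighter probe did. Its difference was -0.03 (SE 0.21, limma adjusted p = 0.965). Treated rat 3 decided the sign of the small Cyp1a2 difference, which was 0.12 at the brighter probe without that rat, and that rat's array lay alone on slide 2. Without treated rat 1 the difference was -0.31 (limma adjusted p = 0.452).

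Among hepatocytes, Cyp1a2 is known to be most abundant around the central vein. Of 8 pericentral markers 7 were measured, and 6 of them were below 0, with a median of -0.54 against 0.01 over all genes. None of the 7 passed by limma (2 at unadjusted p under 0.05, both lower). The ammonium transporter Rhbg was at -0.995 (SE 0.34), the glutamine synthetase Glul at -0.54 (SE 0.21) and the ornithine aminotransferase Oat at -0.69 (SE 0.29), with limma adjusted p of 0.364, 0.397 and 0.408. Without corn oil rat 1, Rhbg was at -0.67 and Glul at -0.35. Cyp2e1, named after its values were seen, stood at 0.23. The summed signals of the list, 156646 to 256256 with corn oil and 186147 to 235172 with anthranilic acid, overlapped. Cyp2e1 alone gave 123606 to 215545 with corn oil and 170120 to 211982.5 with anthranilic acid. The sums therefore mostly follow Cyp2e1 and not the 6 markers below 0. Lgr5 had no probe that passed the filter. Periportal markers (8 of 8 measured) had a median of 0.11, with 5 higher and 3 lower, and 0 passed by limma (1 in each direction at unadjusted p under 0.05). Among them Cyp2f4 was at 0.57, the gluconeogenic Pck1 at -0.64 and Sds at -0.69. The relation of zonation to Cyp1a2 was not tested.

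Aldh3a1, the aldehyde dehydrogenase that AhR ligands induce strongly in rat liver, was well above background in every liver at probe A_43_P12705. Its signal was 223, 263 and 248 with corn oil and 281, 264 and 262 with anthranilic acid. The processed signals of corn oil rat 2 and treated rat 3 met, whereas after scaling the 3 treated livers lay above all corn oil livers. The mean was 245 ± 20.2 (SD, n = 3) against 269 ± 10.65 (SD, n = 3). The difference was 0.18 (SE 0.10, 95% interval -0.06 to 0.41, limma adjusted p = 0.488), and the upper end of the interval corresponds to 1.33-fold.

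A fainter Aldh3a1 probe, A_64_P067654, gave 25.9, 20.9 and 25.3 with corn oil and 16.0, 21.1 and 22.3 with anthranilic acid. Only corn oil rat 3 was well above background, so this probe was not tested. The 2 probes disagreed over the 6 arrays (Pearson r = -0.62), with group differences of 0.18 at the brighter and -0.25 at the fainter. The value for Aldh3a1 therefore rests on the brighter probe alone.

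**Figure D2:**
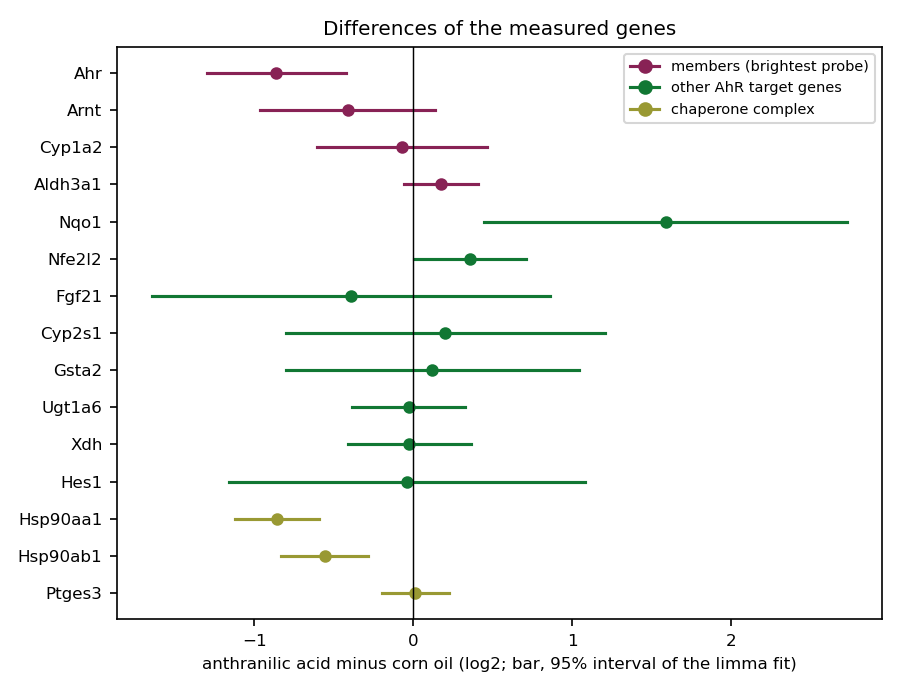
Differences between the groups (log2, anthranilic acid minus corn oil; bars, 95% intervals of the limma fit, 3 arrays per group) for the 4 measured members, 8 other AhR target genes and 3 genes of the AhR chaperone complex. The intervals of Cyp1a2 (-0.60 to 0.46) and Aldh3a1 (-0.06 to 0.41) include 0, whereas those of Ahr, Nqo1, Nfe2l2, Hsp90aa1 and Hsp90ab1 do not, although no adjusted p was under 0.05.

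As a group, the 4 measured members had a median difference of -0.24, with 3 below and 1 above 0. Arnt was among them only because all 3 corn oil livers were well above background, against 1 treated liver. A member that enters in this way leans to a value below 0, so the median is only a description. Ahr, Cyp1a2 and Aldh3a1, above background in every liver, were at -0.86, -0.07 and 0.18. The median over all 10257 genes was 0.01. Groups did not overlap for 2 of the 4 (Ahr lower, Aldh3a1 higher at its brighter probe), against 19.8% of all genes.

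**Figure D3:**
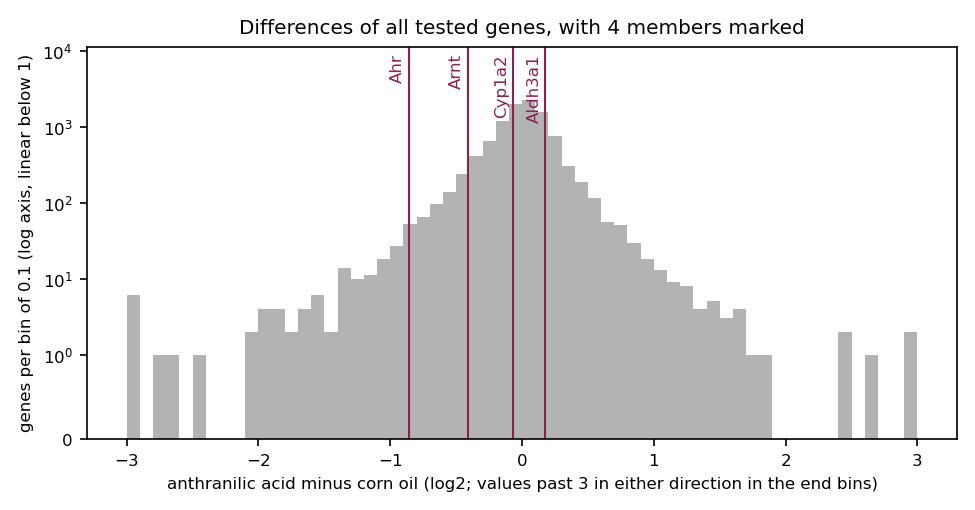
Number of genes in each bin of 0.1 of the difference (log2, anthranilic acid minus corn oil) over 10257 genes, each by its brightest tested probe, on a log axis, with the 4 measured members as lines. Ahr at -0.86 lies in the lower tail, where 1.33% of genes are found, and Cyp1a2 and Aldh3a1 lie in the body of the distribution.

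Other genes known as AhR targets were taken from a list of 12, of which 8 were measured. Their median was 0.05, with 4 higher and 4 lower, and 0 passed by limma (2 at unadjusted p under 0.05, both higher). Nqo1, the quinone reductase that both AhR and NRF2 control, had signals of 1245, 1099 and 338 with corn oil and 2118, 2302 and 2395 with anthranilic acid. All treated livers lay above all corn oil livers, and corn oil rat 3 stood well below the other corn oil livers. The Nqo1 difference was 1.59 (SE 0.47, limma adjusted p = 0.319), a 3.01-fold higher signal, and 1.01 without corn oil rat 3 (limma adjusted p = 0.131). A second Nqo1 probe, A_44_P476733, gave 1.73 (SE 0.51).

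Nfe2l2, which encodes NRF2, was at 0.36 (SE 0.15, limma adjusted p = 0.405), with groups that did not overlap. Its second probe stood at 0.31. The liver hormone gene Fgf21 was at -0.39 (SE 0.52), with treated and corn oil livers overlapping. The next genes, conjugating enzymes of the classical AhR battery, were picked after seeing their values. Gsta2, a glutathione transferase, was at 0.12 (SE 0.38), with its lowest signal in corn oil rat 3 (61900, against 146681 and 157564 in the other corn oil livers). Without that rat Gsta2 was at -0.29.

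For Ugt1a6, the phenol glucuronosyltransferase, the probes disagreed. The brightest, A_64_P009265, was at -0.03 (SE 0.15) and the next, A_64_P025630, at 0.04 (SE 0.22). The third, A_44_P432358, was matched to the gene through a different RefSeq transcript from those probes. Its signals were 244, 309 and 215 with corn oil and 555, 316 and 952 with anthranilic acid. At this probe all treated livers lay above all corn oil livers, the smallest by a narrow margin, and the difference was 1.16 (SE 0.40, limma adjusted p = 0.365). Genes of the Ugt1a cluster share their last exons, so a signal may belong to more than 1 of them. Of the remaining targets on the list, Serpinb2, Scin and Slc7a5 were not well above background in any liver, and no probe was matched to Ugt1a7c.

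The cytosolic complex that holds AhR was measured for 3 genes. The cytosolic chaperone genes Hsp90aa1 and Hsp90ab1 were lower at -0.86 (SE 0.11) and -0.56 (SE 0.11), with limma adjusted p of 0.107 and 0.212. For both, every treated liver lay below every corn oil liver. Hsp90ab1 had signals of 53555, 56493 and 46401 with corn oil and 39927, 32841 and 31175 with anthranilic acid. Ptges3, which encodes p23, stood at 0.01 (SE 0.09, 95% interval -0.20 to 0.23), and its sign turned under some settings, normexp and quantile normalization among them. The median of the 3 was -0.56, and 0 of 3 passed by limma (2 at unadjusted p under 0.05, both lower). Hsp90aa1 passed with normexp background correction (limma adjusted p = 0.0491) and with a trended robust variance (0.0336).

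Among bHLH-PAS relatives of AhR and Arnt, 8 of 13 were measured. Of these, 5 were lower and 3 higher, with a median of -0.09, and 0 passed by limma (0 also at unadjusted p under 0.05). The clock factor Npas2 was at -0.52 (SE 0.23), the hypoxia factor Hif3a at -0.34 (SE 0.20) and Bmal2 at 0.26 (SE 0.15). Of these 3, Hif3a was well above background in all 3 corn oil livers and in 1 treated liver. Hif3a thus entered as Arnt did and leans to a value below 0, so its difference and the list's count and median are only a description. Arnt2, the closest relative of Arnt, was at -0.17 (SE 0.12). The relatives Hif1a and Epas1, which also pair with Arnt, were at 0.07 and -0.10. Arnt2, Hif1a and Epas1 were picked after seeing their values.

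Coactivators and corepressors of nuclear regulators, 5 of 11 measured, lay close to 0, with a median of 0.05 and 0 passing by limma (0 at unadjusted p under 0.05). Nrip1 was at 0.35 (SE 0.21), Rb1 at 0.19 (SE 0.16) and Crebbp at 0.05 (SE 0.11). In the list of relatives of the CYP1, ALDH3 and PARP families, 8 of 11 were measured, with a median of -0.09. None passed by limma, and 2 had an unadjusted p under 0.05, both lower. They belong to the PARP family, of which Tiparp is a member. Zc3hav1, an antiviral zinc finger protein, was at -0.63 (SE 0.18) and Parp3, of DNA repair, at -0.29 (SE 0.10), with limma adjusted p of 0.313 and 0.370. Parp1 was at 0.16 (SE 0.09).

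Enzymes that begin the formation of tryptophan-derived AhR ligands were measured for 4 of 7 genes, with a median of 0.03. None passed by limma (1 at unadjusted p under 0.05, higher). The tryptophan dioxygenase Tdo2, which opens the indole ring on the way to kynurenine, had signals of 26654, 31253 and 31378 with corn oil and 35024, 41725 and 39603 with anthranilic acid. The Tdo2 groups did not overlap, with a difference of 0.42 (SE 0.13, limma adjusted p = 0.323). Aadat and Afmid were at 0.11 and -0.16. Ido1 was not well above background throughout either group.

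Genes whose scaled signals ran most like those of a member were sought over the 6 arrays among 9837 other genes well above background on all arrays. For Ahr these were Lzts1 (Pearson r = 0.995) and Stx19 (r = 0.987), which lay at -0.65 and -0.52. For Cyp1a2 they were Sf3b2 (r = 0.991) and Abr (r = 0.991), and for Aldh3a1 Pomt1 (r = 0.991) and Copb2 (r = 0.987). The numbers of genes with r above 0.95 were 29, 14 and 20. With 6 arrays and this many genes such values are a description of these arrays. The genes named for Ahr and for Aldh3a1 (Pomt1 at 0.16, Copb2 at 0.10) share the direction of the member's group difference. Sf3b2 and Abr, like Cyp1a2, had differences close to 0, both at -0.03.

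**Figure D4:**
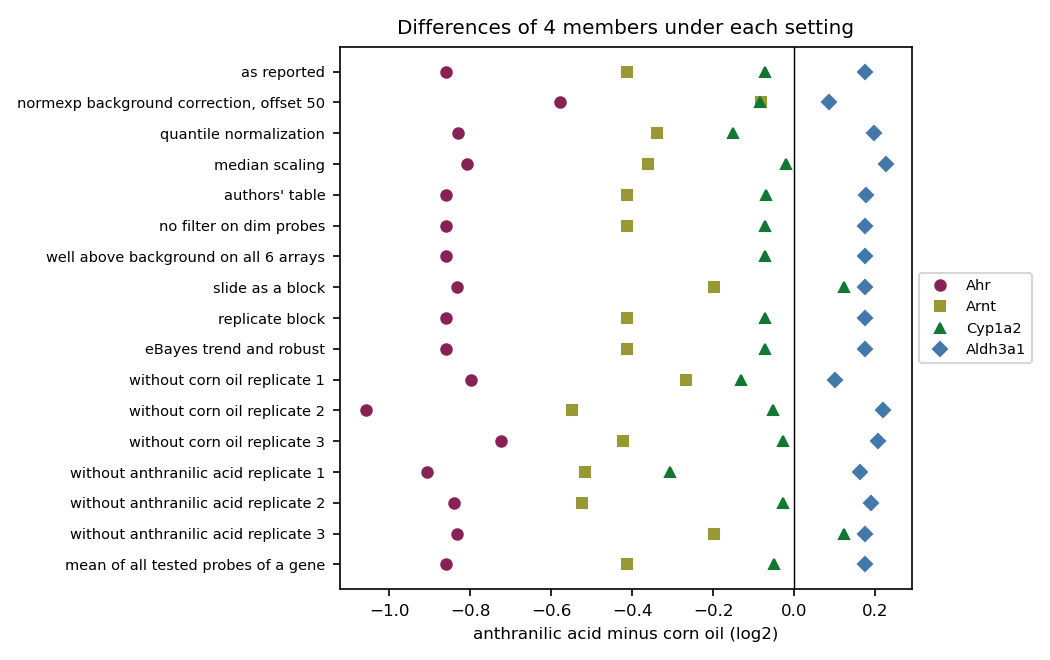
Difference (log2, anthranilic acid minus corn oil) of 4 members as reported and under each alternative; each point is 1 fit. Ahr stays between -1.06 and -0.58 and Aldh3a1 between 0.09 and 0.23, whereas Cyp1a2 lies on either side of 0 (-0.31 to 0.12); Arnt has no point where only probes above background on all 6 arrays were kept.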

How the data were processed

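Liver RNA of 6 rats (3 per group, grouped by the treatment label) was hybridised to single-colour Agilent arrays. Per the file headers, the authors extracted the deposited spot intensities with Agilent Feature Extraction 10.7.1.1 (10.7 per the submitters' processing notes), with background subtraction and spatial detrending. The deposited series table holds, per the values, a ratio of processed signal to 1 number per array near its 75th percentile (within 0.0355% to 0.126%); its scale and direction match the scanner values, its column medians were 0.0887 to 0.0976, and it served as an alternative.

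From the log2 of each processed signal the array's 75th percentile (control spots left aside) was subtracted. Of 369942 non-control spots, 14 outlier spots were left out, and no spot was saturated. A tested probe also needed at least 2 unflagged spots per group. Probe accessions, without version, matched a RefSeq (GRCr8) symbol for 27460 of 61657 probes. The files name the older rn4 build, so the only coordinates given are RefSeq's promoter windows. A gene is represented by its brightest tested probe. The group difference of every probe was fitted by lmFit and eBayes in limma 3.58.1 (R 4.3.3), two-sided with Benjamini-Hochberg adjustment. This procedure was run on simulated data with independent noise and no slide effect, which checks the code and not the p-values given here. The rule for naming genes took all members, the 3 genes of each list with the smallest p, and the 2 genes most like each member that was well above background on all arrays. Outside this rule, Gsta2, Ugt1a6, Cyp2e1, Arnt2, Hif1a, Epas1 and Alb were named after their values were seen, and some list genes only as not measured. The members and lists were chosen with earlier results of these data known. Some genes of the lists are not reported here and are not in the counts. The number of arrays limits precision.

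Replicates are different animals per the labels. Same-numbered arrays of the 2 groups deviated together by correlations of 0.07, -0.05 and -0.04, so the numbers were not used as pairs.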

Additional observations from a re-analysis of the deposited data

How the results depend on the processing

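No member passed under any alternative that was run, and the direction of Ahr, Arnt and Aldh3a1 was the same in each that gave a value. The alternatives reuse the same arrays. Arnt had entered only through its corn oil livers, which favours a value below 0, so its constant sign is only a description. Ahr ranged from -1.06 to -0.58 (limma adjusted p 0.150 to 0.484), Arnt from -0.55 to -0.08 and Aldh3a1 from 0.09 to 0.23. Requiring signal on all 6 arrays removed Arnt. Cyp1a2 reversed to 0.12 with slide as a block, and its range without 1 replicate was -0.31 to 0.12; the slide fit uses the same comparison as leaving out treated rat 3. Other signs that turned belonged to differences close to 0. Ptges3 was -0.052 with normexp and -0.047 with quantile normalization. Ugt1a6 was 0.024 with median scaling and 0.39 as the mean of its probes, and Gsta2 was -0.10 with slide as a block. Without 1 replicate the ranges were -0.034 to 0.042 for Ptges3, -0.17 to 0.093 for Ugt1a6, -0.29 to 0.35 for Gsta2 and -0.26 to 0.00279 for Afmid. The 0.39 of Ugt1a6 averages probes at -0.03, 0.04 and 1.16, and the slide fit of Gsta2 is again the comparison without treated rat 3. For the other turns of sign the cause was not tested.

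Of all tested probes, 11 passed by limma. The count was 50 with normexp, 45 with a trended robust variance, 21 with median scaling, 6 with slide as a block, and 2 each without the filter on dim probes and with signal required on all arrays. Leaving out 1 replicate gave 4 to 21. With the replicate number as a block the count was 2, and Ahr had a limma adjusted p of 0.373. Signal over background limits what can be said of Arnt, Ahrr, Cyp1a1 and Cyp1b1.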
